A study of Mus musculus with 4 samples.

Results

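The immunoglobulin kappa variable (Igkv) genes were followed through RNA-seq of whole mouse lung. They were taken as every gene of the deposited count table whose symbol starts with Igkv, which gave 162 of 41079 genes. The study's groups were sequenced as 4 libraries, 1 for each group. The normal WT and normal Rab44-KO libraries are labelled as untreated, although the treatment text that all samples carry also names a PBS challenge. The WT and Rab44-KO libraries called OVA-induced came from mice injected intraperitoneally with ovalbumin (OVA) and alum on days 0, 7 and 14 and challenged intranasally with 100 μg OVA in 50 μL for 4 days, with lungs taken at day 21. Rab44-KO mice carry a Rab44 gene, which encodes a large Rab GTPase, disrupted by CRISPR/Cas9 editing on a C57BL/6 background, and WT mice were their littermates. All mice were females aged 8 to 14 weeks. Every cell type carries the edited gene, and how many mice or separate lungs stand behind a library is not given in the sources used here. Rab44 itself had 251 and 810 counts in the WT libraries (normal, then OVA-induced) and 1 and 0 in the matching Rab44-KO libraries. Scgb1a1 of club cells and Ager of alveolar type 1 cells, which mark lung tissue, had at least 320451 and 19434 counts in every library. Total counts lay between 18112901 and 19910236 per library. With 1 library per group no difference below has a replicate check and no p-value is given. Every range given after a ratio or share is an exact 95% Clopper-Pearson interval, which covers counting error only and not differences between mice.

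An antibody light chain of the kappa class is made from a locus on mouse chromosome 6 that holds many V segments, a few J segments and a single constant segment, Igkc. While a B cell matures, the RAG recombinase joins 1 V segment to 1 J segment, so each B cell and all its descendants transcribe mainly the V gene that was joined. The read counts over the V genes of a tissue therefore reflect which B cell and plasma cell clones are present and how much light chain RNA they make. Plasma cells make far more of this RNA per cell than resting B cells. In bulk lung RNA, fewer such cells and less RNA per cell cannot be told apart. V genes that face the same way as Igkc are joined by deletion of the DNA between, and V genes that face the other way are joined by inversion. The number before the hyphen in a symbol is the V family, a group of related sequences, and the number after it falls toward Igkc.

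The 162 members belong to 20 families. RefSeq lists 102 of them as V segments and 60 as V pseudogenes. They cover 3.149 Mb of chromosome 6 on GRCm38, from Igkv2-137 (chr6:67555636-67556216) at the far end to Igkv3-1 (chr6:70703578-70704177), which lies 18.4 kb from Igkj1. The Igkc strand holds 77 members and the opposite strand 85. Family 4 is the largest, with 33 members, followed by family 13 with 19 and by families 1, 3 and 8 with 13 each. In all, 50 members had no count in any library, and 81 members reached 10 counts in at least 1 library. Igkv14-126, with 12, 7, 66 and 17 counts, was the only RefSeq pseudogene among those 81, and GENCODE M21 types it as a V gene. Lists of 4 values here and below follow the order normal WT, normal Rab44-KO and then WT and Rab44-KO under OVA-induced conditions.

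The V gene contributes most of the antigen-binding part of the light chain. Its last bases, after the codon for a conserved cysteine, form the start of the third complementarity-determining region (CDR3), the loop completed by the J segment. That cysteine was located as the last TANTNNTGN, read on the coding strand only, with 15 to 40 bases after it in the GENCODE M21 transcript, where TAN stands for the usual tyrosine codon and TGN for cysteine. By the GENCODE types, which differ from those of RefSeq for some members, the letters were found there in 97 of 100 V genes and in 31 of 60 pseudogenes (51.7%), and a median of 23 bases followed them (18 to 29). The last 60 bases of the transcripts of 8 members that the genotype comparison turns on are shown 5′ to 3′, with the germline part of CDR3 in capitals.
Igkv4-57-1 (chr6:69544359-69544907, minus strand): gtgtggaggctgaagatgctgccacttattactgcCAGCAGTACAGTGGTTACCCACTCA
Igkv2-137 (chr6:67555497-67556216, plus strand): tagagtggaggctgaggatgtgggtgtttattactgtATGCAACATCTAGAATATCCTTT
Igkv3-4 (chr6:70671788-70672377, plus strand): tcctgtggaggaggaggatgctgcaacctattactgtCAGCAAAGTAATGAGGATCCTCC
Igkv3-1 (chr6:70703578-70704177, plus strand): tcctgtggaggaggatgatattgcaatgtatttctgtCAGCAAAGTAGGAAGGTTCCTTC
Igkv14-111 (chr6:68256389-68256869, plus strand): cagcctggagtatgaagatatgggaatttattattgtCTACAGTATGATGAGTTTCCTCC
Igkv4-91 (chr6:68768555-68769103, minus strand): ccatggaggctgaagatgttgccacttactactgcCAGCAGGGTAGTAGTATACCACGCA
Igkv5-39 (chr6:69900424-69900977, minus strand): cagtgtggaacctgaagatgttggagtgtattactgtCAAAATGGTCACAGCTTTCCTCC
Igkv1-133 (chr6:67724902-67725661, plus strand): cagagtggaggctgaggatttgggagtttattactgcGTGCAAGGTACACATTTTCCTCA

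Members of a family resemble each other closely, which bears on how well reads can be told apart. Over the last 280 bases of 100 V genes, pairs of the same family had a median identity of 87.4% and pairs of different families 66.2%. The nearest other V gene was in the same family for 93 of the 100, at a median identity of 94.3%. Even so, only 10 members shared over 10% of their 150-base windows, the length of a sequenced read, with another gene. Igkv2-137 was among them, with 43.5% of its windows shared with Gm42889, an overlapping gene that has no row among the counted genes, so reads of the overlap have no other counted gene. Some members also end in the same letters. Igkv3-4 and Igkv3-5 share the CDR3 start printed above for Igkv3-4, and Igkv4-59, Igkv4-68, Igkv4-71 and Igkv4-72 share another. Somatic mutation and the joined J segment add differences from the germline that these comparisons do not hold.

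The Igkv genes were sparse in normal lungs and abundant in OVA-induced WT lungs, with OVA-induced Rab44-KO between. They summed to 882, 968, 29708 and 7403 counts. As CPM (counts scaled to library size, with TMM factors), the sums were 45.9 (43.0 to 49.1), 53.0 (49.8 to 56.5), 1534 (1517 to 1551) and 380 (371 to 388), with exact Poisson intervals. Igkc, the constant segment joined to every V gene of the locus, was likewise highest in OVA-induced WT, with 1309, 1159, 47753 and 10178 counts. The short Igkj segments had at most 31 counts in a library. In the OVA-induced pair, WT then Rab44-KO, Igkj1 had 3 and 6 counts, Igkj2 10 and 12, Igkj3 17 and 18, Igkj4 13 and 30, and Igkj5 31 and 10. Igkj4 was thus higher in Rab44-KO (log2FC 1.19, 0.21 to 2.26) and Igkj5 lower (−1.63, −2.84 to −0.58). The ratio of Igkv to Igkc counts was 0.674 (0.618 to 0.734), 0.835 (0.766 to 0.910), 0.622 (0.613 to 0.631) and 0.727 (0.706 to 0.750), so it was higher in the Rab44-KO library of each pair. At least 1 count was seen for 82, 77, 105 and 97 members.

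**Figure D1:**
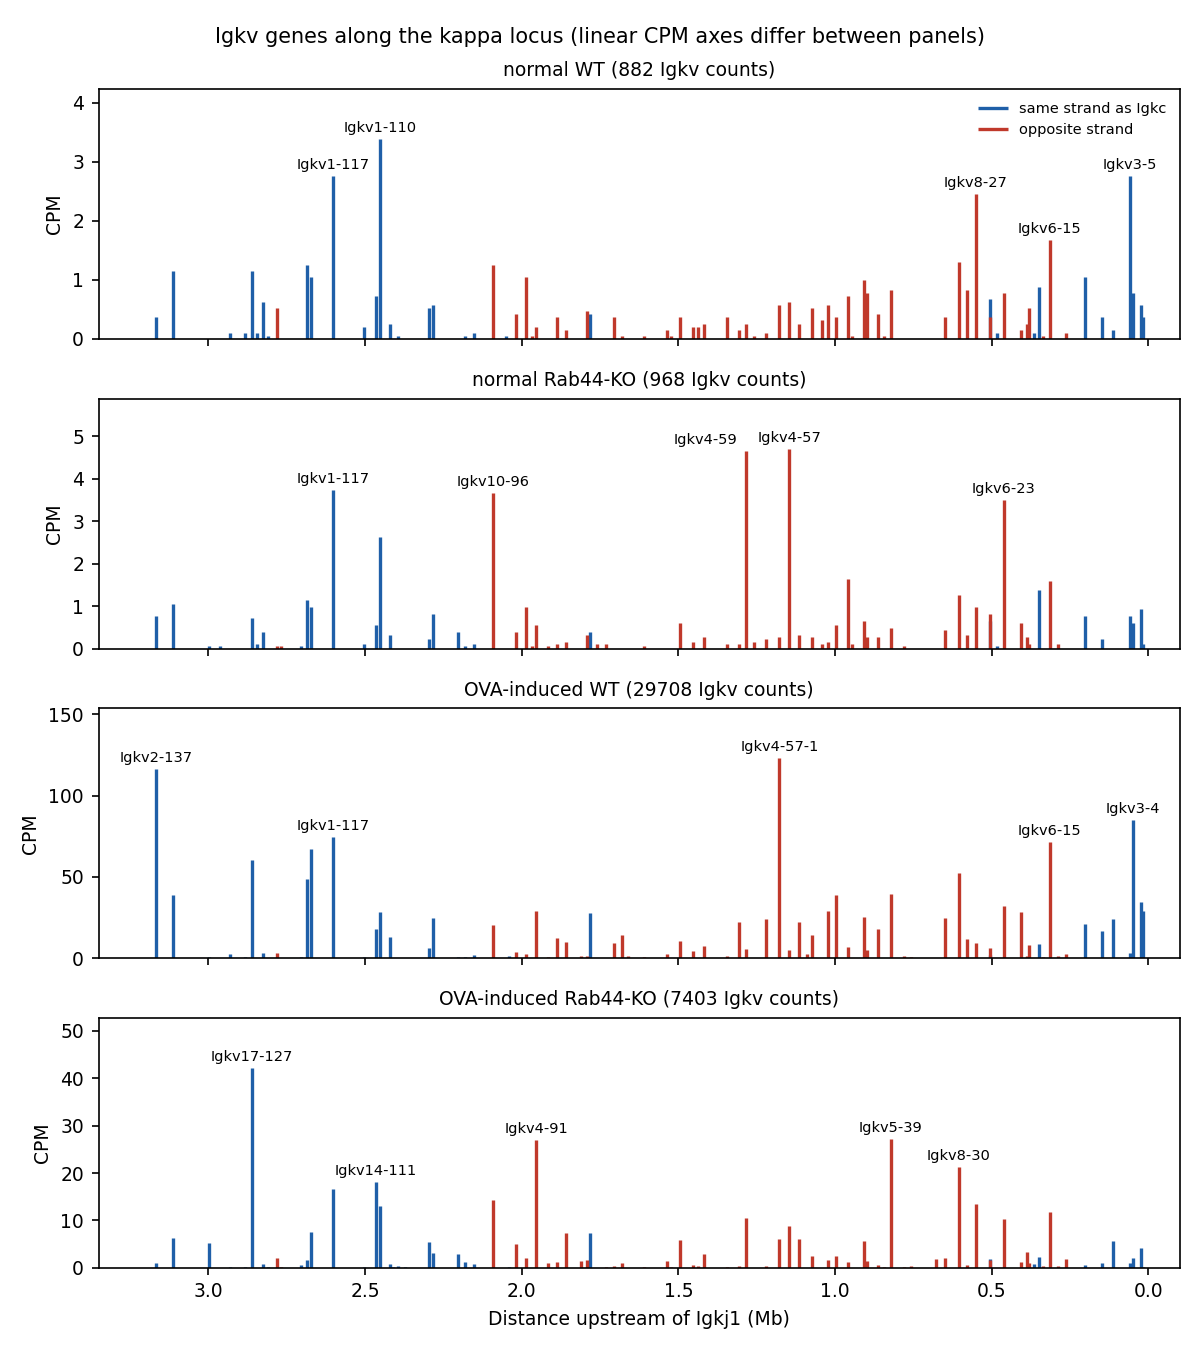
CPM of each Igkv gene (vertical lines, linear axes that differ between panels) against its distance upstream of Igkj1 in Mb, in the 4 libraries, coloured by strand relative to Igkc. The 5 members with most counts are named in each panel, and those of OVA-induced WT (Igkv4-57-1 first) share no gene with those of OVA-induced Rab44-KO (Igkv17-127 first).

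To ask how OVA induction altered V gene RNA in WT lungs, OVA-induced WT was compared with normal WT. Nearly every V gene that could be measured was higher after OVA. Of 78 members that reached 10 counts in the higher of the compared libraries, 77 were over 2-fold higher and 0 over 2-fold lower, against 8.99% and 5.20% of all genes at that count minimum. Their median log2 fold change (log2FC) was 5.05, or 4.46 with the 10 members at 0 in normal WT set to a floor of 3 counts, and the median over all 19023 genes was 0.00. All 78 reached that minimum in OVA-induced WT, so those below it in normal WT could hardly have been lower. Of the 33 that also reached it in normal WT, 32 were higher by over 2-fold, against 5.69% of genes with as many counts there. The summed counts were 33.4-fold (31.2 to 35.7) higher in CPM. Igkv3-5 was the single exception, with 53 counts in normal WT and 65 in OVA-induced WT, a 1.22-fold difference (0.833 to 1.78). Its neighbour Igkv3-4, which has the same CDR3 start, went from 15 to 1645 counts, 109-fold (65.7 to 195). The largest differences among members with at least 100 counts were those of Igkv2-137 (7 to 2249 counts, 319-fold, 154 to 793), Igkv4-79 (1 to 276 counts), Igkv4-58 (2 to 472 counts) and Igkv4-57-1 (11 to 2380 counts, 214-fold, 120 to 430). The smallest among these members were those of Igkv8-27 (47 to 176 counts, 3.71-fold), Igkv5-43 (15 to 103 counts, 6.81-fold) and Igkv1-110 (65 to 547 counts, 8.34-fold). Igkv1-110, the largest member in normal WT, held 7.37% of Igkv counts in normal WT and 1.84% in OVA-induced WT.

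In Rab44-KO lungs V genes were also higher after OVA, with a smaller difference in the summed counts. Whether the response differs between genotypes was not tested. OVA-induced Rab44-KO was compared with normal Rab44-KO, and 57 of 66 members were over 2-fold higher and 0 over 2-fold lower, against 6.44% and 3.85% of all genes. All 66 reached the minimum in OVA-induced Rab44-KO, and of the 30 that also did so in normal Rab44-KO 22 were higher by over 2-fold, against 3.28% of genes with as many counts there. The median log2FC at the minimum of 10 was 2.92, or 2.76 with bounds for the 7 members at 0, and the sum was 7.16-fold (6.69 to 7.66) higher. Igkv17-127 went from 13 to 822 counts (59.2-fold, 34.4 to 112), and Igkv5-39 went from 9 to 531 counts (55.2-fold, 28.9 to 121). Igkv4-91 went from 10 to 524 counts (49.0-fold, 26.5 to 103) and Igkv14-111 from 10 to 351 (32.9-fold, 17.7 to 69.1). The other 9 members were within 2-fold. Among them were Igkv2-137, with 14 and 18 counts, Igkv17-121, with 21 and 34, and Igkv3-5, with 14 and 21.

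The question of the series was what loss of Rab44 does under OVA-induced conditions. After OVA, most V genes had fewer counts in the Rab44-KO library than in the WT library, but by very unequal amounts. Of 81 members that reached 10 counts in either library, 55 (67.9%) were lower by over 2-fold, 5 (6.17%) were higher by over 2-fold and 21 lay between. Over all 19259 genes at that minimum, 7.34% were lower and 8.40% higher by that amount. The median log2FC of the members was −1.94, with quartiles of −3.55 and −0.51, and that of all genes was −0.02. The minimum was reached by 78 members in the WT and by 66 in the Rab44-KO library, so more members passed through the library where most were higher. The summed Igkv counts were 4.04-fold (3.94 to 4.14) lower in Rab44-KO.

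**Figure D2:**
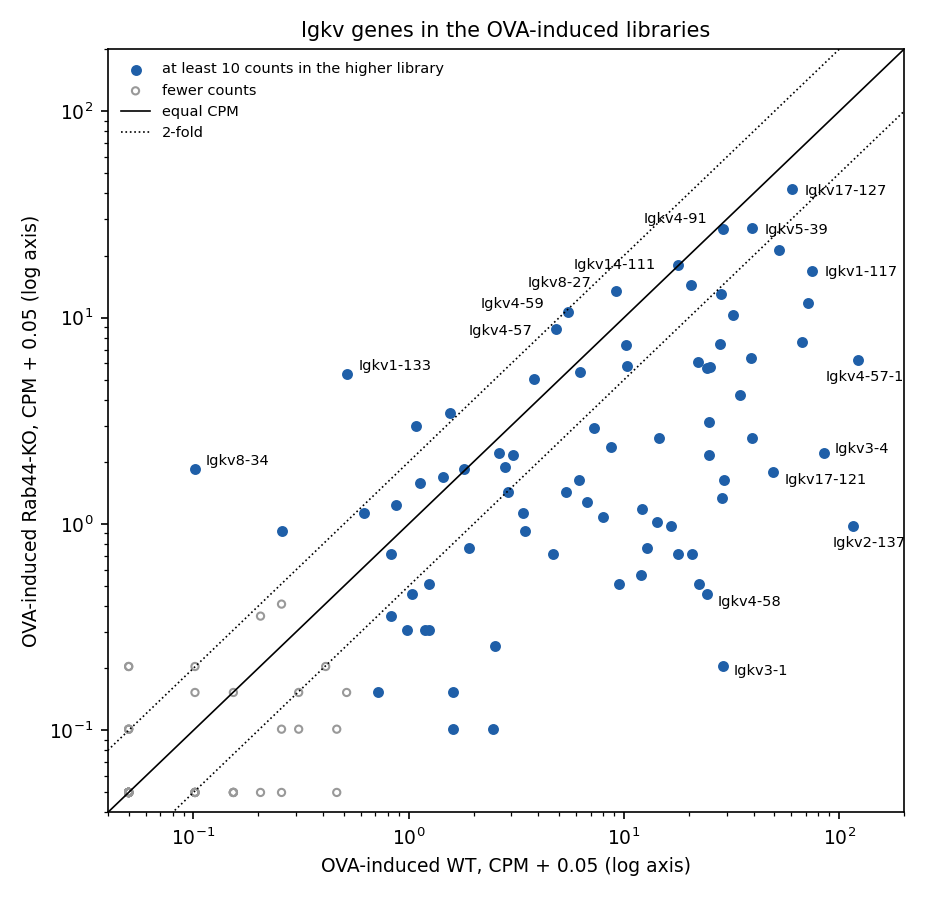
CPM + 0.05 of each Igkv gene in OVA-induced WT (x axis) and OVA-induced Rab44-KO (y axis), both logarithmic, with the line of equal CPM and dotted lines at 2-fold. Filled points reach 10 counts in either library. Most lie below the lower dotted line, Igkv4-91 and Igkv14-111 lie near equality, and Igkv1-133 and Igkv8-34 lie above the upper line.

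Several V genes with many counts in OVA-induced WT were far lower in OVA-induced Rab44-KO. Igkv4-57-1 had 11, 5, 2380 and 120 counts in the 4 libraries. In OVA-induced lungs it was 20.0-fold (16.6 to 24.2) lower in Rab44-KO. Igkv2-137, the V gene farthest from Igkc, had 7, 14, 2249 and 18 counts. Its 2249 counts in OVA-induced WT stand alone, since the other libraries did not pass 18, and the genotype difference was 126-fold (79.4 to 213). Igkv3-4 had 15, 11, 1645 and 42 counts and was 39.4-fold (29.0 to 54.9) lower. Igkv3-1, the V gene nearest to Igkj1, had 7, 2, 557 and 3 counts. Its ratio, which rests on 3 counts in Rab44-KO, was 187-fold lower with a wide interval of 63.6 to 909. Igkv4-58 had 2, 4, 472 and 8 counts (59.4-fold lower) and Igkv4-61 had 3, 2, 431 and 9 counts (48.2-fold lower). With Igkv2-137, Igkv3-4 and Igkv3-1 they were the 5 largest decreases among members with at least 100 counts, and Igkv4-57-1 was not among these. Igkv4-57-1 was named as the largest WT member and the others for their low ratio, so high WT and low Rab44-KO counts follow from that choice. Apart from Igkv4-57-1, none passed 42 counts in OVA-induced Rab44-KO.

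Other abundant V genes were lower in Rab44-KO by amounts nearer to the sum. Igkv1-117 was among the 5 largest members in 3 of the libraries, with 53, 68, 1446 and 326 counts, and was 4.47-fold (3.96 to 5.05) lower in OVA-induced Rab44-KO. Igkv6-15 had 32, 29, 1382 and 228 counts and was 6.10-fold (5.30 to 7.05) lower. Igkv8-30, with 25, 23, 1015 and 413 counts, was 2.47-fold (2.20 to 2.78) lower.

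A small group of V genes was as high, or nearly as high, in the Rab44-KO as in the WT library after OVA. Igkv17-127 was the member with most counts in OVA-induced Rab44-KO, with 22, 13, 1168 and 822 counts, a 1.43-fold (1.31 to 1.57) lower level there than in WT. Igkv5-39 had 16, 9, 761 and 531 counts, 1.44-fold (1.29 to 1.61) lower. Igkv4-91 had 4, 10, 558 and 524 counts, with a ratio of Rab44-KO over WT of 0.933 (0.826 to 1.05). Igkv14-111 had 14, 10, 344 and 351 counts, with a ratio of 1.01 (0.871 to 1.18), so the intervals of both include equality. Both OVA-induced libraries were well above both normal libraries for these 4 genes.

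The 5 members over 2-fold higher in OVA-induced Rab44-KO were Igkv1-133, Igkv8-34, Igkv8-18, Igkv14-100 and Igkv6-20, all of low or moderate count. Igkv1-133, Igkv8-34 and Igkv8-18 reached the count minimum only in the Rab44-KO library, where they were high. Of the 78 members that reached it in OVA-induced WT, 2 were over 2-fold higher (2.56%), against 5.26% of all such genes. Igkv6-20 shares 46.0% of its read-length windows with Igkv6-29. Igkv1-133 had 0, 1, 9 and 103 counts, an 11.4-fold (5.76 to 25.6) higher level in Rab44-KO. Igkv8-34 had 0, 0, 1 and 35 counts. Igkv4-59 (5, 85, 106 and 206 counts) and Igkv4-57 (12, 86, 93 and 171 counts) were 1.93-fold (1.52 to 2.46) and 1.83-fold (1.41 to 2.38) higher and had been higher in the normal Rab44-KO library too. Igkv8-27 had 47, 18, 176 and 262 counts and was 1.48-fold (1.22 to 1.80) higher.

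**Figure D3:**
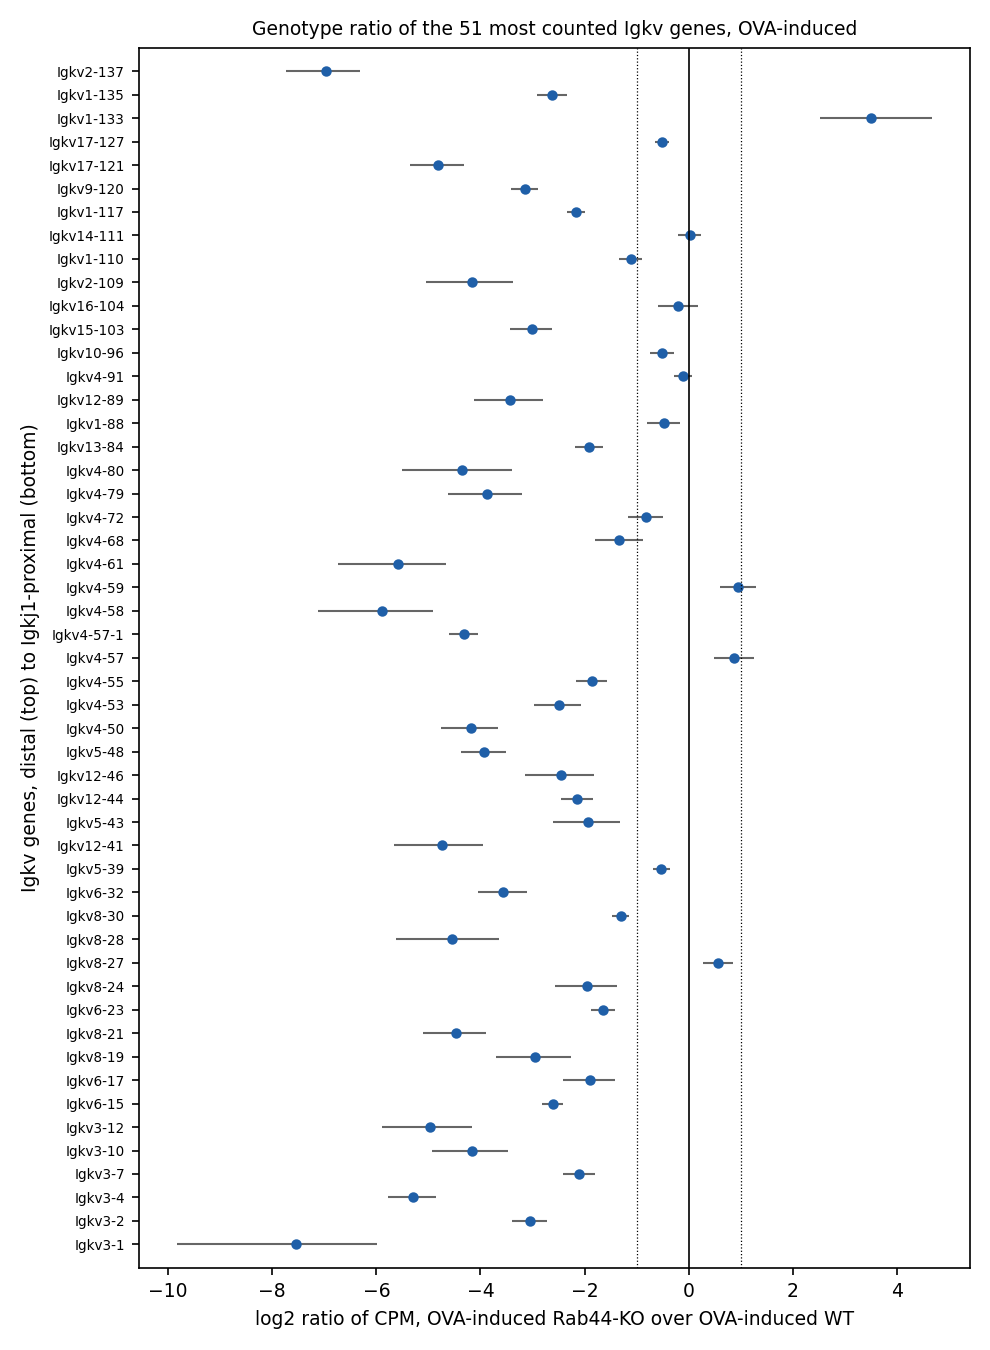
The log2 ratio of CPM, OVA-induced Rab44-KO over OVA-induced WT, for the 51 Igkv genes that reach 100 counts in either library, in locus order from distal (top) to Igkj1-proximal (bottom). Points are ratios, bars are exact 95% intervals for counting error, and dotted lines mark 2-fold. Igkv1-133, above 0, lies between Igkv1-135 and Igkv17-127, which are below it.

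Near-identical family members could lie far apart in this comparison. Igkv17-127 and Igkv17-121 are shown as the last 300 bases of their transcripts because they differ by 6 substitutions, marked by capitals in Igkv17-121, and share no 150-base window.
Igkv17-127 (chr6:67861153-67861659, plus strand): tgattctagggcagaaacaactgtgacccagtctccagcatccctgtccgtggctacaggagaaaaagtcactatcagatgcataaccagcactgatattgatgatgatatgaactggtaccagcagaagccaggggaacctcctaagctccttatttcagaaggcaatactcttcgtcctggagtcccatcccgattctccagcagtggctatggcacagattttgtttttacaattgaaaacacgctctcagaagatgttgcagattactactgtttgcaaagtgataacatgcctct
Igkv17-121 (chr6:68036812-68037318, plus strand): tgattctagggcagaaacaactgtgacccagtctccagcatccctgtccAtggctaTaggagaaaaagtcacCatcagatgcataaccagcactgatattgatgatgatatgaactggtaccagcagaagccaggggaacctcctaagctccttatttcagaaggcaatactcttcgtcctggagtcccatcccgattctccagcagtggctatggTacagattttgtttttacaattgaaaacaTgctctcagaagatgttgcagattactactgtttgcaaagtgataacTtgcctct
Igkv17-121 had 24, 21, 948 and 34 counts. In normal lungs and in OVA-induced WT it therefore lay close to Igkv17-127, but in OVA-induced Rab44-KO it had 34 counts against 822, and its genotype difference was 28.1-fold (19.9 to 40.8) lower against 1.43-fold. Within family 17, Igkv17-127 held 55.2% of the WT and 96.0% of the Rab44-KO counts under OVA-induced conditions.

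Family 4 showed a similar contrast between neighbours. Igkv4-57, Igkv4-57-1 and Igkv4-59 lie on the strand opposite to Igkc, 1146, 1178 and 1284 kb from Igkj1. Their last 300 bases are printed because Igkv4-57 and Igkv4-59 were higher in Rab44-KO under both conditions, while Igkv4-57-1 was lower under OVA-induced conditions and had 11 and 5 counts in normal WT and Rab44-KO. Capitals mark bases that differ from Igkv4-57 in an alignment or are inserted. Igkv4-59 has 16 substitutions, 1 inserted and 1 deleted base, and Igkv4-57-1 has 22, 7 and 1, beside 6 bases of Igkv4-57 that lie before the first base printed for Igkv4-57-1.
Igkv4-57 (chr6:69575975-69576500, minus strand): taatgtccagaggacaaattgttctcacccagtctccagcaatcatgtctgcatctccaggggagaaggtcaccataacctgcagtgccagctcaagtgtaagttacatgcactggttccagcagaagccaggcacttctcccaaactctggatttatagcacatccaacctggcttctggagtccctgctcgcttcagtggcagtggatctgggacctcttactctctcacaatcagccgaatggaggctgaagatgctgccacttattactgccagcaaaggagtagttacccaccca
Igkv4-59 (chr6:69438218-69438757, minus strand): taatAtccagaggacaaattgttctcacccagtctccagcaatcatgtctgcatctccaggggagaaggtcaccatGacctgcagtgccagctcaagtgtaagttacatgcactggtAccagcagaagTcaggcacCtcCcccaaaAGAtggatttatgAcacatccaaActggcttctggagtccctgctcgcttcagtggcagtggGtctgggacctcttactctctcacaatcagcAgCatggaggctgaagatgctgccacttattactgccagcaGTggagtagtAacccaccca
Igkv4-57-1 (chr6:69544359-69544907, minus strand): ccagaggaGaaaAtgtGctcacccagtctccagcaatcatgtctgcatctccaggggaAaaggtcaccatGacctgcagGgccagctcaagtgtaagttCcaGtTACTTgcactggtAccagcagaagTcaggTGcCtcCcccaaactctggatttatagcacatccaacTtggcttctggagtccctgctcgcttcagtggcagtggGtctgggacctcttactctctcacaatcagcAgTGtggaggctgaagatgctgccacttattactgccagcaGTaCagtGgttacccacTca
Among OVA-induced libraries, Igkv4-57-1 took 37.0% of the family 4 counts in WT, and Igkv4-91 took 33.9% of them in Rab44-KO.

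Summed by family, OVA-induced Rab44-KO had fewer counts than OVA-induced WT in every family with at least 50 counts in all 4 libraries together, but the size ranged widely. Family 2, most of it Igkv2-137, went from 2519 to 47 counts, 54.0-fold (40.4 to 73.6) lower. Family 3, the group nearest to Igkc, went from 4130 to 289 counts, 14.4-fold (12.8 to 16.3) lower. Families 15, 9 and 12 were 8.09-, 7.14- and 6.57-fold lower. Families 4 and 6, at 4.19- and 4.25-fold, were close to the sum over all members, and families 1, 5, 8, 13 and 17 were 2.49- to 3.22-fold lower. Family 10 was 1.33-fold (1.16 to 1.52) lower. For families 14, 16 and 19 the intervals included equality, with 479 and 429, 120 and 105, and 50 and 42 counts in WT and Rab44-KO. As shares of Igkv counts, family 3 held 13.2% (11.0 to 15.6), 6.40% (4.95 to 8.14), 13.9% (13.5 to 14.3) and 3.90% (3.47 to 4.37) in the 4 libraries, so both Rab44-KO libraries were below both WT libraries. Different genes led the family in the WT libraries, Igkv3-5 in normal WT (53 of 116 counts) and Igkv3-4 in OVA-induced WT (1645 of 4130). Family 17 held 5.22%, 3.51%, 7.12% and 11.6%, and family 14 held 3.40%, 2.69%, 1.61% and 5.79%. Family 4 was the largest in both OVA-induced libraries and in normal Rab44-KO, with 12.6% (10.5 to 15.0), 24.7% (22.0 to 27.5), 21.6% (21.2 to 22.1) and 20.9% (20.0 to 21.8).

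**Figure D4:**
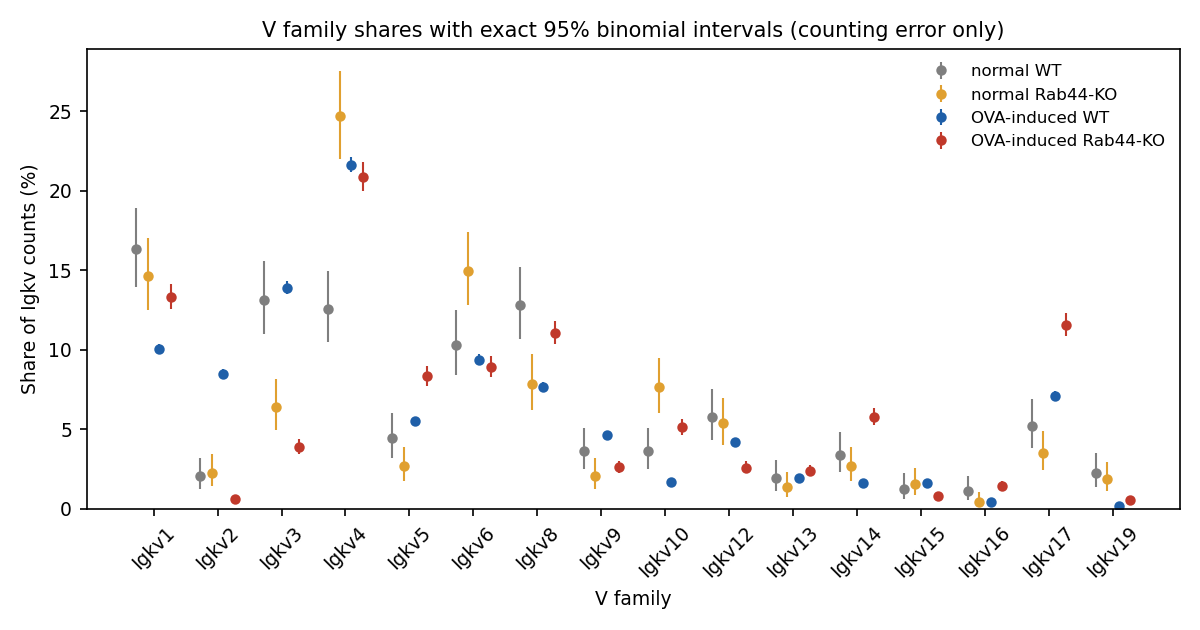
Share of Igkv counts (%) held by each V family with at least 50 counts in all, in the 4 libraries. Points are shares and bars exact 95% binomial intervals for counting error; family 2 reaches 8.48% only in OVA-induced WT, and family 3 is lower in both Rab44-KO libraries than in both WT libraries.

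Position was read as distance from Igkj1 and as strand. The 89 members on the Igkc side of the midpoint of the V span (the Igkc-proximal part) held 56.5% (53.1 to 59.8), 59.8% (56.6 to 62.9), 57.7% (57.1 to 58.3) and 47.0% (45.9 to 48.2) of Igkv counts. OVA-induced Rab44-KO was thus the only library in which the distal part held more. The proximal sum was 4.96-fold (4.78 to 5.14) and the distal sum 3.22-fold (3.11 to 3.34) lower in Rab44-KO than in WT after OVA. The difference did not follow distance step by step. The largest differences were at both ends of the locus, with the members within 0.5 Mb of Igkj1 7.62-fold (7.12 to 8.16) lower and those beyond 3.0 Mb, mostly Igkv2-137, 21.4-fold (18.1 to 25.5) lower. The members from 2.0 to 2.5 Mb, which include Igkv14-111, Igkv1-110 and Igkv10-96, were 1.84-fold (1.72 to 1.97) lower. Members on the Igkc strand held 49.8% (46.4 to 53.1), 37.9% (34.8 to 41.1), 49.7% (49.1 to 50.3) and 41.1% (40.0 to 42.2) of Igkv counts, lower in the Rab44-KO library of each pair. These sums rest on few genes. Without its largest member, the distal Igkv17-127, the proximal share of OVA-induced Rab44-KO was 52.9%. Without its own largest member, the proximal Igkv4-57-1, that of OVA-induced WT was 54.0%. A different gene was left out of each library, so these shares cannot be set against each other.

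Counts were spread over many V genes in each library, and no single gene dominated. The member with most counts was Igkv1-110 in normal WT, with 7.37% (5.73 to 9.30), and Igkv4-57 in normal Rab44-KO, with 8.88% (7.17 to 10.9). It held 8.01% (7.71 to 8.33) in OVA-induced WT (Igkv4-57-1) and 11.1% (10.4 to 11.8) in its Rab44-KO counterpart (Igkv17-127). The 5 largest held 28.3%, 38.2%, 30.6% and 35.7%, and 50% of the counts were reached by 14, 9, 11 and 9 genes. The effective number of genes, the inverse of the chance that 2 random counts fall on the same gene, was 37.4 (33.4 to 41.4), 25.3 (22.7 to 27.8), 29.8 (29.4 to 30.3) and 24.6 (23.7 to 25.5), with normal approximations of the 95% counting error. It was lower in the Rab44-KO library of each pair. Expected at an equal depth of 882 counts, the number of members seen was 82, 75.9, 69.2 and 74.1, so by this measure the Rab44-KO library was the broader of the OVA-induced pair. Of the 10 largest members, 5 of 10 were shared between the OVA-induced libraries and 5 of 10 between the normal libraries. Morisita's index of overlap, which is 1 for equal usage apart from counting, was 0.69 between the normal libraries and 0.58 between the OVA-induced libraries. Across conditions, normal WT shared 7 of 10 with OVA-induced Rab44-KO (index 0.62) and 5 of 10 with OVA-induced WT (0.61), and normal Rab44-KO shared 5 of 10 with OVA-induced Rab44-KO (0.58) and 3 of 10 with OVA-induced WT (0.49).

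**Figure D5:**
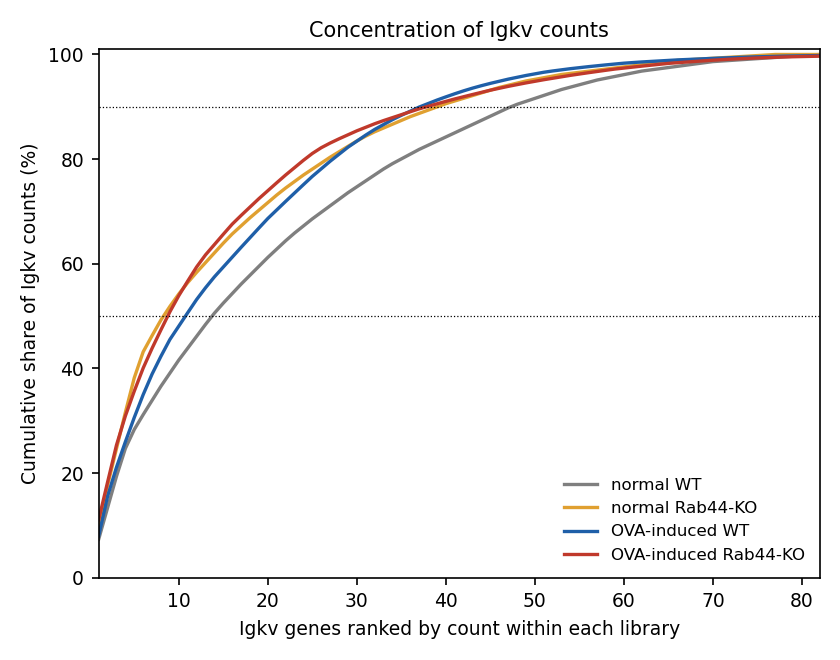
Cumulative share of Igkv counts (%) over genes ranked by count within each library, with dotted lines at 50% and 90%. The normal WT curve rises most slowly and reaches 90% with 48 genes, against 40, 38 and 38 genes in the other libraries.

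Under normal conditions the genotypes differed little in the total and more in single genes. Of 40 members that reached 10 counts, 18 differed by over 2-fold, 9 of them higher and 9 lower in Rab44-KO. The counting interval lay above equality for 6 of the 40 and below it for 4. Of all genes, 4.77% differed by over 2-fold and 2.77% were higher. The counts are not alike, since 7 members but 14843 of 18718 genes reached 50 counts. Of 33 members with at least 10 counts in normal WT, 4 were higher (12.1%) and 9 lower (27.3%), against 0.955% and 2.06% of such genes. Over the 40 members the median log2FC was −0.10, and the summed Igkv counts were 1.15-fold (1.05 to 1.27) higher. No member reached 100 counts, so many of these ratios are imprecise. Igkv4-59, with 5 counts in normal WT and 85 in normal Rab44-KO, was 17.9-fold (7.37 to 56.5) higher. Igkv4-57, with 12 and 86 counts, was 7.54-fold (4.10 to 15.2) higher, and Igkv6-23, with 15 and 64 counts, was 4.49-fold (2.53 to 8.48) higher. Igkv3-5, with 53 and 14 counts, was 3.60-fold (1.97 to 7.02) lower. By family, families 4 (mostly Igkv4-57 and Igkv4-59), 6 and 10 were 2.27-, 1.68- and 2.43-fold higher and families 3 and 8 were 1.78- and 1.41-fold lower, each with an interval beyond equality.

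Marker lists of the cells that transcribe the kappa locus were read in the same libraries, and the lists were not tested against each other. The B cell markers (Ms4a1, Cd79a, Cd79b, Pax5, Cd22, Cr2 and Fcer2a) summed to 197, 150.4, 389.8 and 243 CPM. In the OVA-induced pair, Rab44-KO over WT, their median log2FC was −0.61, with 1 of 7 over 2-fold lower and 0 higher, against 7.34% and 8.40% of all genes. The plasma cell list (Jchain, Sdc1, Xbp1, Prdm1, Irf4, Mzb1, Tnfrsf17 and Derl3) summed to 505, 502, 1456 and 718 CPM, with a median of −1.39 and 5 of 8 over 2-fold lower, against the same 7.34%. Prdm1, a regulator of plasma cell identity, had a log2FC of 0.04. In the normal pair, Rab44-KO over WT, the median log2FC was −0.32 for the B cell list and 0.00 for the plasma cell list. Sdc1 and Xbp1 are also transcribed by epithelium. Jchain, the joining chain of secreted IgA and IgM, had 266, 521, 15799 and 4761 counts. Mzb1, a chaperone of antibody secretion, had 98, 74, 956 and 185 counts. Of the germinal centre list (Bcl6, S1pr2, Fas, Gcsam, Mef2b and Ung), 0 of 5 tested genes were beyond 2-fold in the OVA-induced pair. Of the lymph node stroma list (Ccl21a, Cxcl13, Fdcsp, Ccl19 and Madcam1), 1 of 3 tested genes was over 2-fold lower in that pair (Ccl19, with 26 and 12 counts), against 7.34% of all genes, and the list summed to 66.7, 65.6, 95.7 and 61.4 CPM. The list for V(D)J recombination, a process of B cell precursors, summed to 0.104, 0.438, 0.516 and 0.718 CPM. Of its measured genes, Rag1, Rag2 and Igll1 had at most 1 count in a library, and Dntt, which adds bases where segments join, had 0, 7, 8 and 12 counts. The alveolar epithelial genes Ager (36794, 27938, 31705 and 19434 counts) and Cldn18 (18183, 16829, 15175 and 9164 counts) had log2FC of −0.72 and −0.74 in that pair, and Scgb1a1 had 0.14. The part of these cell types in the Igkv differences was not tested. Genes outside the immunoglobulin loci whose length is like that of the members, 21 in the OVA-induced genotype comparison, had a median log2FC of −0.15 there.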

How the data were processed

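Total lung RNA was sequenced as 150-bp paired-end reads from directional libraries. Per the labels and methods, the authors used HISAT2 for alignment of trimmed reads to GRCm38, featureCounts for gene counts and DESeq2 for their own comparisons. Versions, strand setting and the handling of multi-mapped reads are not given in the sources used here. The authors deposited raw counts and TPM. The deposited positions of all 162 members lie 23016 bases below their RefSeq GRCm38.p6 positions, so printed positions are from RefSeq, or from GENCODE M21 beside sequences. No coordinates were converted.

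Counts were scaled by TMM over the 4 libraries (edgeR 4.0.16, R 4.3.3). The log2FC used a prior count of 0.125, adjusted for library size, where the higher library reached 10 counts, and over 2-fold means beyond 1 on the log2 scale. Where a member had 0 counts, a floor of 3 counts stood in for bounds. Python 3.11.15, scipy 1.17.1 and matplotlib 3.10.9 were used, and the steps were tested on simulated data. Named genes were the 5 largest members per library, the 5 largest and smallest log2FC per comparison with at least 100 counts, the largest member of each family and the ends of the locus. Igkv17-121, Igkv8-34 and the other genes outside that rule were chosen after their values were seen. The members and marker lists were chosen with earlier results of these data known. Some marker genes are not reported here and were left out of the list values. Alternatives covered scaling (DESeq2 1.42.0 size factors among them), count minimum, prior count, TPM and shared sequence.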

Additional observations from a re-analysis of the deposited data

Results flagged for a closer look

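For 5 members the genotype difference pointed in opposite directions in normal and OVA-induced lungs, with both counting intervals beyond equality. Of 40 members tested in the normal pair, the interval lay above equality for 6 and below it for 4. In the OVA-induced pair it lay above equality for 8 and below it for 58 of 81, so most members tested there were lower. The share over all genes was not computed. With 1 library per group the difference between the 2 conditions was not tested, and differences between mice are not covered. Igkv8-27 was lower in Rab44-KO under normal conditions (log2FC −1.31, 47 and 18 counts) and higher under OVA-induced conditions (0.56, 176 and 262 counts). The others were higher in normal Rab44-KO and lower in OVA-induced Rab44-KO. Igkv6-23 had a log2FC of 2.16 (15 and 64 counts) and −1.64 (620 and 200 counts). Igkv10-96 had 1.55 (24 and 67 counts) and −0.51 (396 and 280 counts). Igkv12-46 had 1.17 (14 and 30 counts) and −2.44 (130 and 24 counts). Igkv8-21 had 1.90, which rests on 3 counts in normal WT against 11, and −4.46 (550 and 25 counts).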

How the results depend on the processing

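No paired analysis was possible because each group has 1 library. The lower Igkv level of OVA-induced Rab44-KO kept its direction in all 17 alternative values of the median and the sum. Of 184 alternative values, 154 stayed within the interval of the reported value or within 1.5 times the count and 30 moved. The median of normal Rab44-KO over WT, whose interval includes 0, turned from −0.10 to 1.55 at a count minimum of 50, and no value with an interval beyond 0 changed sign. In OVA-induced Rab44-KO over WT, the count over 2-fold higher was 8 with TPM, 11 at a count minimum of 1 and 3 at a minimum of 50. With the length trend removed (chosen after seeing the data) that count was 10 and the median −1.45. The 21 genes of like length outside the immunoglobulin loci had a median of only −0.15. How much of the removed trend came from the Igkv genes themselves was not tested. The count of 10 is therefore not read as a length correction. The summed log2FC in that comparison was −1.95 with total counts, −1.69 with TPM and −1.92 without the 10 members sharing sequence. In normal Rab44-KO over WT, a minimum of 50 left 4 higher and 1 lower of 7 tested (0.505% and 0.175% of all genes), and a minimum of 1 gave 21 higher and 28 lower of 92 (11.7% and 9.65%). For OVA-induced over normal WT the median was 4.36 at a minimum of 1 and 4.08 with a prior count of 2, and the sum was 4.89 with TPM. At a minimum of 1, 2 of 107 members were over 2-fold lower (1.87%, against 12.6% of all genes). For OVA-induced over normal Rab44-KO, 31 of 32 were over 2-fold higher at a minimum of 50 (96.9%, against 3.15% of all genes). At a minimum of 1, 7 of 103 were over 2-fold lower (6.8%, against 11.8%), and the sum was 2.96 with TPM. With each library's own largest member left out, a different gene each time, the proximal share was 61.0%, 55.9%, 54.0% and 52.9%. These shares cannot be set against each other. It was 63.5% in OVA-induced WT without members sharing sequence. The effective number was without the largest member 31.2 in the WT and 27.9 in the Rab44-KO library of the OVA-induced pair, and 23.0 in the latter without members sharing sequence. The top 5 share was then 29.3%, 32.6% and 37.2%. The cause of these moves was not tested. The normal libraries hold 882 and 968 Igkv counts, which limits single-gene ratios there.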
